A study of Drosophila melanogaster with 12 samples.

Results

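The comparison asked whether the difference in head gene expression between males and females of Drosophila melanogaster differed between 3 populations evolved under monogamy and 3 evolved under polygamy. The 2 sexes of each population were sequenced as 1 mRNA library each, so all 12 of the 12 libraries of the series entered, and each population gave 1 male minus female difference per gene. Per the labels, selection on the mating system had run for 117 generations, every population then passed 1 generation in a common garden, and heads were taken from virgin flies that were 4 days old and had been kept with their own sex. All 4 groups (monogamous females, monogamous males, polygamous females and polygamous males, 3 libraries each) therefore share the virgin state, the age and the rearing, and differ by sex and by the mating history of their ancestors. Neither the heads pooled per library nor the founding stock is given in the sources used here. Of 11236 genes in the deposited table, the 10568 with a mean normalised value of 10 or more over the 12 libraries were tested. Differences were taken as log2(value + 1), so that changes of genes with low values are understated, and the interaction is the mean difference of the 3 monogamous populations minus that of the 3 polygamous ones. A positive interaction means that males stood higher relative to females under monogamy.

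Mating systems set how strongly each sex competes for and chooses mates: with many mates per fly, males and females can be selected in opposite directions, and with enforced pairs their interests coincide more closely. Sex differences in the fly head arise partly in neurons and partly in the fat body that surrounds the brain, where the yolk protein genes are transcribed in females under control of the sex determination pathway. The head also holds a large epidermis that secretes the cuticle. Cuticle is built from chitin, made by the chitin synthase kkv, trimmed by chitin deacetylases and bound by structural proteins such as the Cpr family, which carry the Rebers-Riddiford chitin-binding domain; in the first days of adult life this epidermis is still adding cuticle layers.

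Reads recovered from the deposited values summed to 34558521 to 52282995 per library. The head markers were present throughout: photoreceptor markers took 6.603 to 9.87% of a library's signal, whereas the single accessory gland marker in the file took at most 3.55e-05%, and testis markers 0.00958 to 0.0125%. The female library of monogamous population 1 stood apart, with neuron markers at 0.0765% of the signal against 0.305 and 0.324% in the other monogamous females and 0.336 to 0.375% in polygamous females. Its population accordingly lay at -75.2 on the first principal component of the 6 sex differences, which held 52.5% of the variance, against 10.8 to 18.2 for the other 5 populations. For the genes described below, results are therefore also given without monogamous population 1 where its removal changed the call. Of the 114 genes that the naming rule selected, 42 did not pass with all 6 populations and passed without it. Not all of the 42 are described, and 3.15% of all genes passed without that population. In heads measured in bulk, fewer cells of a type and less RNA per cell cannot be told apart.

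Males stood higher relative to females under monogamy for 9 of the 10568 genes tested (0.0852%, limma on the 6 differences, Benjamini-Hochberg adjusted p under 0.05), and for 0 genes (0%) did the change go the other way. The 9 were Cda4, Cpr97Eb, Acp1, Vajk3, CG7203, CG7214, CG8736, CG11458 and CG3713, so a chitin deacetylase and 3 cuticle proteins stood among them. Their interactions ran from 1.32 to 3.31 on the log2 scale. In polygamous populations every one of the 9 was lower in males than in females, with no overlap of the libraries. In monogamous populations the libraries of the sexes, taken without pairing, overlapped for 7 of them, males exceeded females for Cda4 and stayed below females for CG11458. Paired within each monogamous population, the male was above the female for Cda4, Cpr97Eb, Acp1, CG7203, CG7214, CG8736 and CG3713. Vajk3 was mixed, with a difference of -0.03 in population 2. The change had a part in each sex: the male libraries were higher under monogamy without overlap for all 9 genes, against 13.7% of all genes, and the female libraries were lower under monogamy without overlap for 7 of the 9, against 14.7%. Only 0.549% of all genes showed both. The 9 were picked by the interaction, which is the male part minus the female part in these same libraries. Such shifts follow in part from that choice, so these shares are a description. Averaged over the 6 populations, 8 of the 9 were higher in females and Cda4 was higher in males.

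The adjusted p-values of the 9 genes lay between 0.046 and 0.048, directly under the threshold, and the next gene, serp, had 0.053. An unadjusted p under 0.05 was reached by 798 genes. On recovered reads, edgeR called 9 genes higher and 0 lower under monogamy, and DESeq2 called 53 higher and 24 lower. Without monogamous population 1, 333 genes passed (3.15%), 261 with a higher difference under monogamy (2.47%) and 72 with a lower one (0.681%), and all 9 were among them. Leaving out any other population left 0 to 2 genes. The 3 differences of one mating system did not overlap the 3 of the other in 2328 genes (22%), 1251 of them higher (11.8%) and 1077 lower under monogamy (10.2%).

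**Figure D1:**
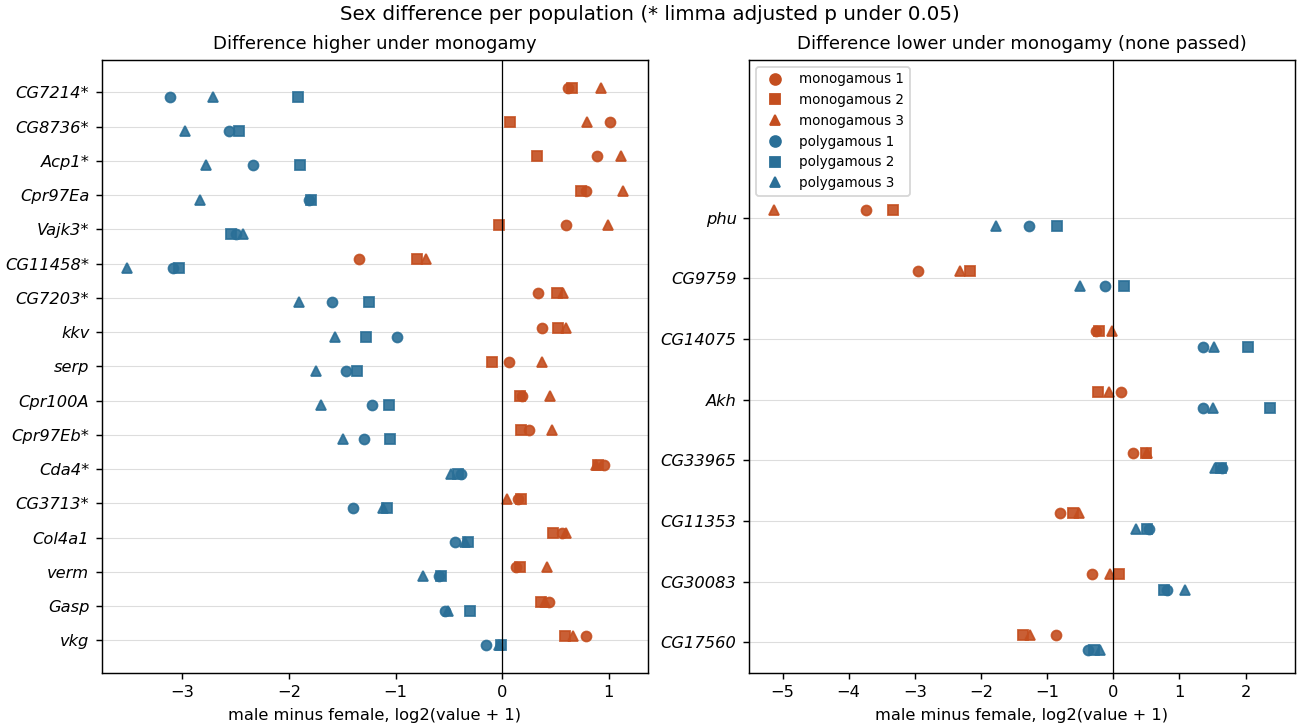
Male minus female difference on the log2(value + 1) scale, 1 symbol per population, for genes whose difference was higher under monogamy (left) and lower under monogamy (right). Orange symbols are the 3 monogamous and blue the 3 polygamous populations; stars mark the 9 genes with an adjusted p under 0.05, which all lie in the left panel, and no orange symbol overlaps the blue ones in any row.

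**Figure D2:**
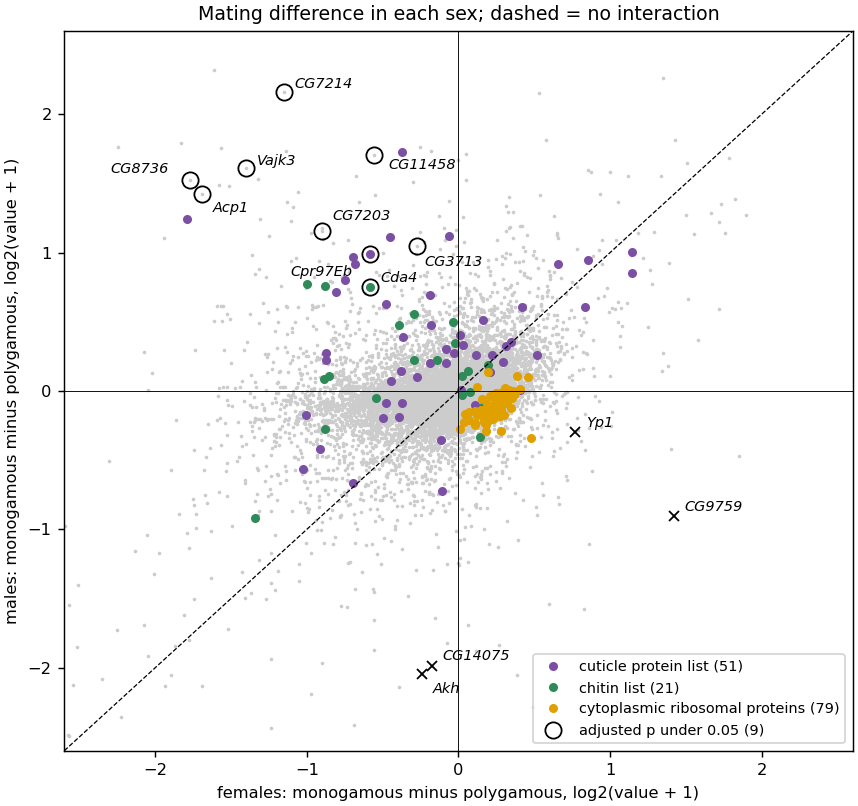
Each gene's monogamous minus polygamous difference in females (x axis) and in males (y axis), both on the log2(value + 1) scale; the dashed diagonal marks equal shifts in both sexes and the distance above it is the interaction. The 9 genes that passed (circled) lie at the upper left, lower in monogamous females and higher in monogamous males; cytoplasmic ribosomal proteins lie below the diagonal, and 24 genes fall outside the plotted range of 2.6 on either side.

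Cda4 (FBgn0052499, chromosome X), a chitin deacetylase that removes acetyl groups from chitin, had the smallest p of all genes. It had normalised values of 169, 168 and 202 in females and 328, 316 and 371 in males of monogamous populations 1, 2 and 3. In polygamous populations it had 243, 242 and 331 in females and 186, 182 and 238 in males. Monogamous males were thus above monogamous females in every library, and polygamous males below polygamous females. The male minus female difference was 0.91 ± 0.04 under monogamy and -0.42 ± 0.05 under polygamy (SD, n = 3 populations each), an interaction of 1.34 (SE 0.10, adjusted p = 0.046), and 1.31 without monogamous population 1 (adjusted p = 0.0043).

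The deacetylases serp and verm, which lie next to each other on chromosome 3L, also had positive interactions, without passing the test. Values of serp were 655, 565 and 630.5 in females and 686, 528 and 818 in males under monogamy, and 948, 1127 and 1363 in females and 342, 439 and 405 in males under polygamy. The sexes overlapped under monogamy, with the male below the female in population 2, and males were below females under polygamy. Its interaction was 1.64 (SE 0.17, adjusted p = 0.053). For verm the interaction was 0.87 (SE 0.12, adjusted p = 0.10). The deacetylase gene Cda9 went the other way, at -0.47 (adjusted p = 0.65), and -0.71 without monogamous population 1 (adjusted p = 0.23). Cda5 had 0.97 (SE 0.61, adjusted p = 0.65), and 0.22 without that population (adjusted p = 0.087). Its sex difference was 2.46 in monogamous population 1, against 0.20 and 0.23 in populations 2 and 3. The chitin synthase kkv had 117, 97.5 and 136 in females and 152, 140.5 and 207 in males under monogamy, and 165, 258 and 295 in females and 83.0, 106 and 98.9 in males under polygamy. Males were above females in every monogamous population and below them in every polygamous one, with an interaction of 1.77 (SE 0.18, adjusted p = 0.055). Gasp, a secreted chitin-binding protein, had an interaction of 0.85 (SE 0.10, adjusted p = 0.081).

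Of the 21 genes listed for chitin synthesis, deacetylation and assembly, 1 passed (Cda4) and 16 had a positive interaction, against 5470 of all 10568 genes. Their median interaction was 0.49, where that of all genes was 0.01. The 6 differences did not overlap in 11 of the 21, all higher under monogamy (52.4%, against 11.8% of all genes). In 5 of them males were above females in all 3 monogamous populations and below in all 3 polygamous ones, which held for 136 of all genes (1.29%), while 127 (1.2%) had the reverse order. Without monogamous population 1 the median was 0.36 and 8 of the 21 passed as higher, where 2.47% of all genes did. They were Cda4, serp, kkv, Gasp, verm, the chitin-binding obst-A and obst-B, and the chitinase Cht2. The remaining chitinases had interactions of 0.96 for Cht6, 0.60 for Cht10, 0.52 for Cht7 and 0.08 for Cht5, which were 0.43, 0.19, 0.36 and 0.12 without monogamous population 1, and none passed in either comparison. For mmy, which makes the sugar donor of chitin, the interaction was -0.0032, and 0.15 without that population. The list was chosen with earlier results of these data known, so its count is a description. As a share of the whole signal the 21 genes took 0.0566 to 0.0649% in monogamous females, 0.0697 to 0.0753% in monogamous males, 0.0701 to 0.0809% in polygamous females and 0.0635 to 0.0680% in polygamous males, so the order of the sexes changed between the mating systems.

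Among structural cuticle proteins, Cpr97Eb (FBgn0039481, chromosome 3R) passed. Its values were 612, 522 and 547 in females and 727, 591 and 756 in males under monogamy, and 658, 873 and 1031 in females and 268, 420.2 and 366 in males under polygamy. Polygamous males had the 3 lowest values of all 12 libraries. The interaction was 1.58 (SE 0.15, adjusted p = 0.046). Its neighbour Cpr97Ea, of the same family, had the larger estimate of 3.03 but a wider error (SE 0.34, adjusted p = 0.069). Its values were 32, 23.2 and 29.3 in females and 56.0, 39.3 and 65.4 in males under monogamy, and 69.4, 124 and 113 in females and 19.1, 35.0 and 15.0 in males under polygamy. Cpr100A (1.59, adjusted p = 0.078), Cpr76Bd (1.67, adjusted p = 0.10) and Cpr49Ag (1.55, adjusted p = 0.10) followed, none passing. Cpr97Ea and these 3 passed without monogamous population 1, with adjusted p of 0.013, 0.0074, 0.0195 and 0.0153.

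Acp1 (FBgn0014454, chromosome 2L) encodes an adult cuticle protein and also passed. Under monogamy it had 889, 578 and 682 in females and 1648, 724 and 1478 in males. Under polygamy it had 1626, 2512 and 2885 in females and 321, 675 and 421 in males. The lowest polygamous female was above every monogamous female, and the highest polygamous male was below every monogamous male. The sex difference went from 0.78 ± 0.41 under monogamy to -2.34 ± 0.44 under polygamy, an interaction of 3.11 (SE 0.29, adjusted p = 0.046).

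Vajk3 (FBgn0028544, chromosome 2L) belongs to a small family of cuticle proteins. Its values under monogamy were 165, 104 and 122 in females and 251, 102 and 244 in males, and under polygamy 226, 425 and 408 in females and 39.2, 72.2 and 74.9 in males. In monogamous population 2 the sexes were nearly level, and in the polygamous populations all 3 differences lay between -2.54 and -2.43. The interaction was 3.01 (SE 0.27, adjusted p = 0.046). The other members of its family had smaller interactions and did not pass: 0.68 for Vajk2 (adjusted p = 0.13), 0.58 for Vajk1 and 0.22 for Vajk4 (adjusted p = 0.65 for both). Without monogamous population 1, Vajk2 passed at 0.71 (adjusted p = 0.012), Vajk1 was at 0.31 and Vajk4 at 0.22.

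Over the cuticle protein list, 51 of 66 genes in the file met the value minimum. Of these 51, 1 passed and 40 had a positive interaction, with a median of 0.35. The 6 differences did not overlap in 17, 16 of them higher under monogamy (31.4%, against 11.8% of all genes) and 1 lower (1.96%, against 10.2%), Cpr73D at -0.07. Without monogamous population 1 the median was 0.31 and 8 of the 51 passed, all positive, where 2.47% of all genes passed as higher. Some members sat high in males under both mating systems: Cpr76Bc was at 305 to 369 in monogamous females and 1673 to 1841 in monogamous males, and at 251 to 348 and 1017 to 1546 in polygamous females and males, an interaction of 0.35 (adjusted p = 0.65). The summed signal of the list was 0.0975 to 0.102% in monogamous males, above the 0.0661 to 0.0824% of the other 9 libraries. Abundant members weigh most in this sum. In monogamous males Cpr65Au had 12465 to 13716, Cpr49Ae 9551 to 10758 and Cpr67B 4563 to 5213. Their interactions were 0.19, 0.76 and 0.0074, and none passed with all 6 populations. Cpr49Ae passed without monogamous population 1, at 0.68 (adjusted p = 0.0074).

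The other 5 genes that passed carry only a number as their name, and no role is given for them here. CG7214 (FBgn0031940, chromosome 2L) lies beside Acp1 on the same strand. It had 7417, 2778 and 5346 in females and 11412, 4365 and 10165 in males under monogamy, and 7751, 10684 and 14584 in females and 891, 2839 and 2227 in males under polygamy. Population 2 was the lowest monogamous population in both sexes, yet its sex difference of 0.65 lay between the 0.62 and 0.93 of the other two. The interaction was 3.31 (SE 0.31, adjusted p = 0.046).

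For CG7203 (FBgn0031942, chromosome 2L), values were 9994, 6203 and 9032 in females and 12579, 8846 and 13399 in males under monogamy. Under polygamy they were 11506, 14657 and 21668 in females and 3810.1, 6148 and 5768 in males. The interaction was 2.06 (SE 0.19). CG8736 (FBgn0033308, chromosome 2R) had 406, 338 and 404 in females and 818, 355 and 700.3 in males under monogamy, and 898, 1533 and 1602 in females and 151, 277 and 203 in males under polygamy. Here the female side of the change was the larger, -1.77 against 1.52 in males, and the interaction was 3.29 (SE 0.27).

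CG11458 and CG3713 differed from the other 7 in that the female libraries of the mating systems overlapped. CG11458 (FBgn0040637, chromosome 3L) had 4492, 1851 and 2573 in females and 1767, 1065 and 1567 in males under monogamy, and 3053, 3907 and 5697 in females and 358, 477 and 496 in males under polygamy. The male minus female difference was below 0 throughout, at -0.95 ± 0.34 under monogamy and -3.21 ± 0.27 under polygamy, and the interaction was 2.26 (SE 0.22). CG3713 (FBgn0040343, chromosome X) had 290, 283 and 272 in females and 321, 320.3 and 280.1 in males under monogamy, and 286, 399 and 346 in females and 108, 188 and 159 in males under polygamy. Its interaction was 1.32 (SE 0.13, adjusted p = 0.048), with a male part of 1.05 and a female part of -0.27.

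**Figure D3:**
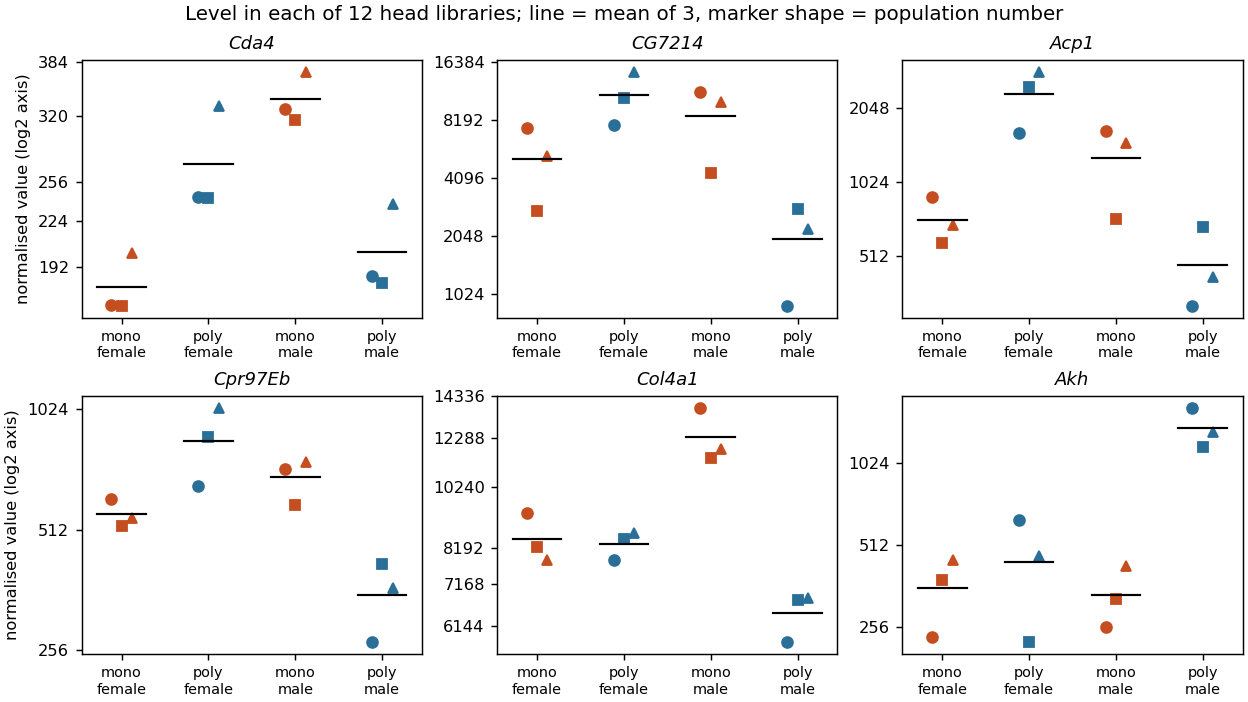
Normalised value of 6 genes in each of the 12 head libraries on a log2 axis, grouped by sex and mating system; symbol shape gives the population number and the line the mean of 3 libraries. Cda4, CG7214, Acp1 and Cpr97Eb, which passed, show the order of mating systems turned between females and males, whereas Col4a1 and Akh, which did not pass, differ between mating systems mainly in males.

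Genes of the basement membrane, the sheet of matrix under epithelia, came close to the threshold. Its 2 type IV collagen chains are encoded by Col4a1 and vkg, neighbours on opposite strands of chromosome 2L. Col4a1 had 9330, 8222 and 7823 in females and 13739.5, 11424 and 11823 in males under monogamy, and 7843, 8468 and 8653 in females and 5787, 6762 and 6805 in males under polygamy. The female groups overlapped, and the male groups did not. The interaction was 0.91 (SE 0.10, adjusted p = 0.055), and vkg had 0.75 (SE 0.10, adjusted p = 0.10). In a list of 7 basement membrane genes, added after values were seen, 6 interactions were positive with a median of 0.51, and 4 did not overlap, all higher under monogamy (57.1%, against 11.8%). These 4 (Col4a1, vkg and the laminin chains LanA and LanB1) passed as higher without monogamous population 1, as did 2.47% of all genes. The interactions of Pxn and Ndg with all populations were 0.04 each. Col4a1 and vkg are made largely by fat body and hemocytes. The 4 hemocyte markers in the file took 0.0203 to 0.0223% of the signal in monogamous males and 0.0149 to 0.0171% in polygamous males, and 0.0145 to 0.0162% and 0.0117 to 0.0134% in monogamous and polygamous females. Their part in the result was not tested. The phagocytic receptor gene NimC1 had an interaction of 0.78 (adjusted p = 0.17), and 0.69 without monogamous population 1 (adjusted p = 0.022). Over the 13 hemocyte genes, which include Col4a1 and vkg, the median was 0.10. It was 0.19 without that population, where Col4a1, vkg and NimC1 passed as higher, and -0.0019 after upper-quartile rescaling. The differences did not overlap in 4 of the 13 that were higher under monogamy (30.8%, against 11.8%) and in 1 that was lower (7.69%, against 10.2%). The latter was PPO2, at -0.36 (adjusted p = 0.54), and -0.38 without monogamous population 1 (adjusted p = 0.068).

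Crys, which encodes the corneal lens protein drosocrystallin, had an interaction of 1.06 (SE 0.14, adjusted p = 0.10), and 1.11 without monogamous population 1 (adjusted p = 0.0055). Its values were 5128, 6446 and 5648 in females and 7971, 10272 and 10496 in males under monogamy, and 4149, 7368 and 6293 in females and 3838, 5560.4 and 4564 in males under polygamy. Another lens gene, retinin, had 0.61 (adjusted p = 0.64), and without monogamous population 1 it had 0.82 (adjusted p = 0.0040). The other 2 genes of this list of 4, which was added after values were seen, overlapped: Cpr66D had 0.37 and Cpr72Ec -0.25. Of 18 pigmentation genes 0 passed and 11 had a positive interaction, with a median of 0.22, and 0.11 without monogamous population 1. The differences did not overlap in 6 that were higher under monogamy (33.3%, against 11.8%) and in 3 that were lower (16.7%, against 10.2%), yellow-f (-0.51), bw (-0.45) and t (-0.20). Without that population 3 passed as higher, against 2.47% of all genes. The pigment transporter gene bw passed as lower (-0.31, adjusted p = 0.026), against 0.681% of all genes. In this list ebony (e), which conjugates dopamine to beta-alanine for tanning, had 0.94 (adjusted p = 0.20), and 0.95 without that population (adjusted p = 0.027). The gene yellow (y), needed for black melanin, had 1.92 with an SE of 0.44 (adjusted p = 0.37), and 1.64 without it (adjusted p = 0.10); polygamous males had 7.85, 13.1 and 18.0 and the other 9 libraries 30.0 to 49.2.

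Glial genes had a median sex difference above 0 in each of the 6 populations. Of 13 listed genes 0 passed with all 6 populations. The differences did not overlap in 9, all higher under monogamy (69.2%, against 11.8%), and the median interaction was 0.28, or 0.18 without monogamous population 1. The GABA transporter gene Gat had 6153, 7289 and 6965 in females and 15705, 12838 and 12479 in males under monogamy, and 6726, 7007 and 6958 in females and 7468, 8523 and 7921 in males under polygamy. Monogamous males thus had the 3 highest values, and the female groups overlapped. Its interaction was 0.80 (SE 0.17, adjusted p = 0.33), and 0.62 without monogamous population 1 (adjusted p = 0.0042). In that smaller comparison 4 of the 13 passed as higher, where 2.47% of all genes did. They were Gat, the sodium pump subunit nrv2, the astrocyte-like glial gene alrm and the glutamate transporter Eaat1. The interaction of repo, the transcription factor of glial identity, was -0.07. The 6 glial markers, 4 of which are these genes, summed to 0.199 to 0.222% of the signal in monogamous males and 0.146 to 0.158% in polygamous males, against 0.126 to 0.135% in all females.

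In the direction of lower male values under monogamy no gene passed, and the smallest adjusted p was 0.055 for CG14075. It had 302, 408 and 493 in females and 253, 350.2 and 487 in males under monogamy, and 673, 267 and 489 in females and 1734, 1103 and 1409.8 in males under polygamy. Polygamous males were above every other library. The interaction was -1.81 (SE 0.19), and -1.76 without monogamous population 1 (adjusted p = 0.0074). Akh encodes adipokinetic hormone, the peptide that mobilises stored fat and sugar, and had a like order. Its values were 236, 381 and 451 in females and 257, 324 and 429.5 in males under monogamy, and 633, 226 and 467 in females and 1623, 1169.9 and 1324 in males under polygamy. Its interaction was -1.80 (SE 0.28, adjusted p = 0.15), and -1.89 without that population (adjusted p = 0.0196).

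CG9759 differed in both sexes. Females had 1698, 854 and 901 under monogamy and 753, 276 and 326 under polygamy, and males had 218, 189 and 181 under monogamy and 692, 311 and 229 under polygamy. The sexes overlapped under polygamy, and males were below females under monogamy, with an interaction of -2.32 (SE 0.26, adjusted p = 0.069), and -2.08 without monogamous population 1 (adjusted p = 0.0044). For phu the interaction was -2.77 (SE 0.49, adjusted p = 0.21); its values were 18958 to 47875 in monogamous females, 1168 to 3599 in monogamous males, 18406 to 27028 in polygamous females and 5410.3 to 15070.2 in polygamous males. The male-enriched fat body gene takeout (to) had -0.97 (adjusted p = 0.34). Both passed without monogamous population 1, phu at -2.94 (adjusted p = 0.027) and to at -0.85 (adjusted p = 0.049).

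The yolk protein genes, whose products are the main egg yolk of the fly, were higher in females everywhere, and by more under monogamy. Yp1 had 1136750, 830706 and 915573 in monogamous females and 601797, 575236 and 502613 in polygamous females, against 1524 to 1797 and 1858 to 2129.8 in the corresponding males. The difference was -9.19 ± 0.27 under monogamy and -8.13 ± 0.16 under polygamy, an interaction of -1.07 (SE 0.18, adjusted p = 0.20). Yp2 and Yp3 had -1.18 (adjusted p = 0.23) and -1.001 (adjusted p = 0.35). All 3 passed without monogamous population 1, at -0.92, -0.96 and -0.78, where 0.681% of all genes passed as lower. Fat body markers together took 2.28 to 2.72% of the signal in monogamous females and 1.39 to 1.71% in polygamous females, and Yp1 is one of them.

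**Figure D4:**
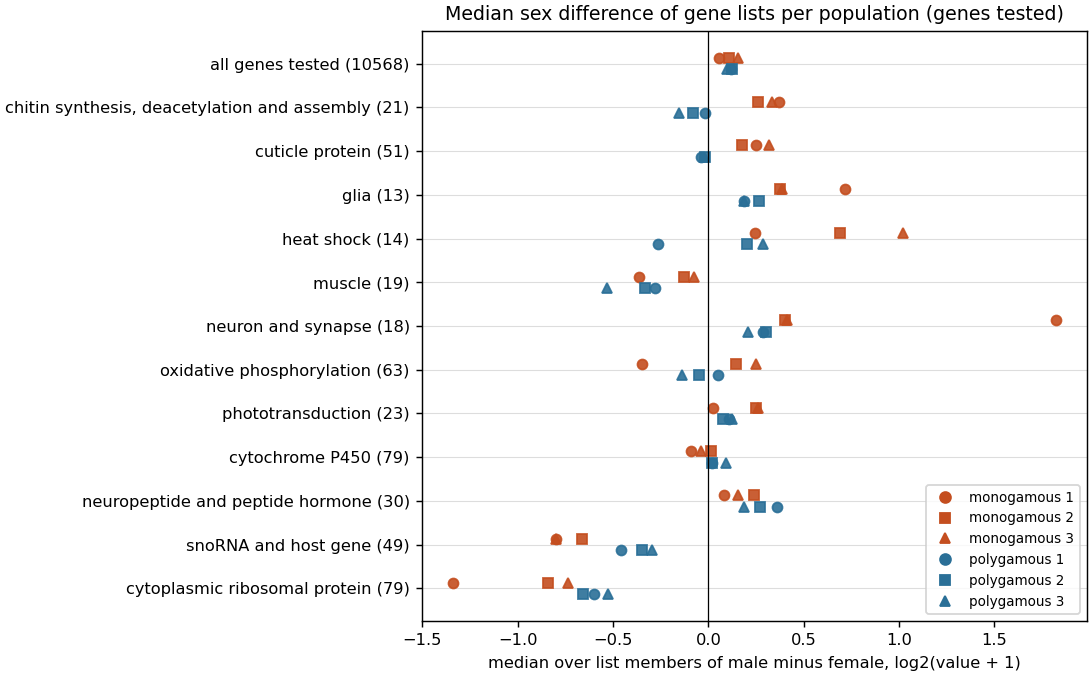
Median male minus female difference (log2(value + 1)) over the tested members of each gene list, 1 symbol per population, with the number of genes in brackets. Chitin and cuticle lists lie above 0 in the 3 monogamous populations. In polygamous populations 1, 2 and 3 the chitin list lies at -0.02, -0.08 and -0.16, and the cuticle list close to 0 at -0.04, -0.02 and -0.02. The neuron list of monogamous population 1 stands apart at 1.82, and the ribosomal protein list is lowest in the monogamous populations.

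Among the gene lists for other cell functions, all 79 cytoplasmic ribosomal protein genes tested had a negative interaction and 0 passed, with a median of -0.37. The differences did not overlap in 54 of them, all lower under monogamy (68.4%, against 10.2%). The set took 6.84 to 9.52% of the signal in monogamous females and 3.74 to 4.12% in monogamous males, and 6.02 to 7.18% and 3.90 to 4.69% in polygamous females and males. Without monogamous population 1 the median was -0.18, and 1 of the 79 passed, as lower. In that comparison 2.47% of all genes passed as higher and 0.681% as lower, to be set beside the counts that follow. The 49 snoRNAs and snoRNA host genes had a median of -0.40 and 12 that did not overlap, all lower (24.5%, against 10.2%), with -0.44 without that population. All 18 neuron and synapse genes had a positive interaction and their median was 0.59, but it was 0.11 without monogamous population 1, whose female library had few neuronal reads. The differences did not overlap in 10 of them, all higher under monogamy (55.6%, against 11.8%). Without that population 2 passed, ChAT at 0.26 (limma adjusted p = 0.029) and Gad1 at 0.35 (adjusted p = 0.028). The 63 nuclear oxidative phosphorylation genes had a median of 0.08 with all populations and 0.26 without monogamous population 1, where 9 passed; upper-quartile rescaling turned the former to -0.02, and leaving out monogamous population 3 turned it to -0.06. The 19 muscle genes had 0.19 and 0.29, and the 14 heat shock genes 0.57 and 0.77, and 0 of either list passed with all populations. Of the 19 muscle genes 11 had a positive interaction. The differences did not overlap in 7 that were higher under monogamy (36.8%, against 11.8%) and in 1 that was lower (5.26%, against 10.2%). The latter was TpnC4, at -3.30 (adjusted p = 0.64), and -2.28 without monogamous population 1 (adjusted p = 0.24). Removal of that population let 5 muscle genes pass as higher (Act57B, Mlc2, Prm, Tm1 and Mlc1). It did the same for 2 heat shock genes, Hsp67Bc and DnaJ-1. For the 23 antimicrobial peptide genes this removal moved the median from 0.10 to 1.03, and 3 passed as higher, against 0 with all populations. Leaving out monogamous population 2 or 3 instead moved that median to -0.10 or -0.53. Muscle markers took 0.428 to 0.472% of the signal in monogamous males and 0.372 to 0.475% in polygamous males, against 0.505 to 0.543% and 0.521 to 0.667% in the females.

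Over the 11 sex determination genes listed, the median interaction was 0.17, and -0.03 without monogamous population 1, where 0 passed. The differences did not overlap in 2 of the 11, both lower under monogamy (18.2%, against 10.2% of all genes). The regulators of sex named here had little interaction outside monogamous population 1. The male difference of Sxl, the switch gene of the pathway, was 1.59 in that population and between -0.43 and -0.33 in the other 5, and its interaction without that population was -0.01 (adjusted p = 0.93). For fru, tra, dsx and msl-2 the corresponding interactions were -0.03, -0.02, -0.10 and 0.03, with adjusted p from 0.68 to 0.94. The male-specific dosage compensation RNAs roX1 and roX2 had interactions of 0.16 (SE 0.15, adjusted p = 0.65) and 0.27 (SE 0.19, adjusted p = 0.65), on sex differences of 6.81 to 8.21. The difference of fit, a female-enriched fat body gene, ran from -2.73 to -1.55, with an interaction of -0.19 (SE 0.36, adjusted p = 0.80), and 0.13 without monogamous population 1 (adjusted p = 0.83).

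The size of the sex difference over the whole transcriptome overlapped between the mating systems. The SD over genes of the male minus female difference was 1.00, 0.533 and 0.627 in monogamous populations 1, 2 and 3 and 0.583, 0.489 and 0.4999 in the polygamous ones. The means were 0.721 ± 0.249 and 0.524 ± 0.0512 (SD, n = 3 each), a difference of 0.197 with an exact two-sided permutation p of 0.2, where 0.1 is the smallest that 3 against 3 populations allow. Without monogamous population 1 the difference was 0.0561. Among the 2081 genes called higher in males on the average of all 6 populations, the median sex difference was 0.42, 0.34 and 0.36 under monogamy and 0.28, 0.30 and 0.27 under polygamy. The median interaction of these genes was 0.09 and turned to -0.02 after upper-quartile rescaling. Among the 1057 genes called higher in females it was -0.88, -0.50 and -0.52 under monogamy and -0.44, -0.47 and -0.38 under polygamy. These classes were set on the same libraries, so the medians are a description.

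**Figure D5:**
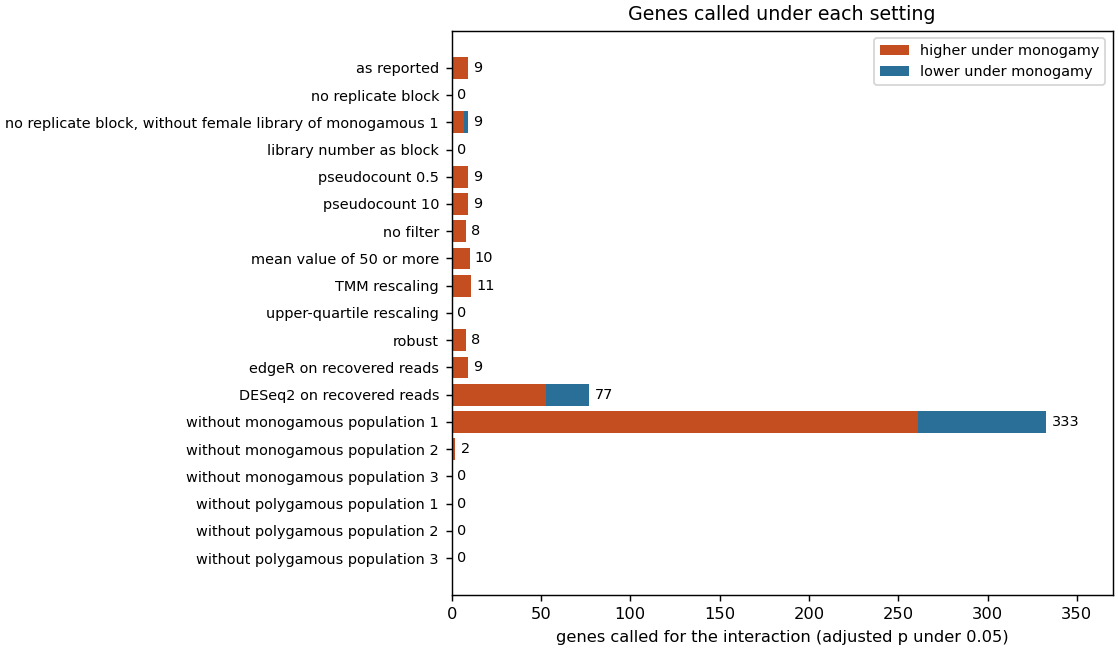
Number of genes with an adjusted p under 0.05 for the interaction as reported and under each alternative setting, split by direction. The count is 8 to 11 under changes of pseudocount, filter, TMM rescaling, robust fitting or edgeR, 0 without the population block or after upper-quartile rescaling, 77 with DESeq2 and 333 without monogamous population 1.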

How the data were processed

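Per the labels' protocols, dissected heads were extracted in RNAzol, and the Illumina mRNA-Seq kit served for library preparation. The submitters' processing notes name TopHat2, HTSeq, DESeq2 and genome build BDGP5. Neither versions nor the strand setting of counting is given in the sources used here, so reads of overlapping genes cannot be assigned with certainty. The deposited signal is a normalised value per gene, and the authors' values are whole reads multiplied by 1 factor per library. Division by that factor gave whole reads for 100% of the values checked, at a tolerance of 0.1 reads. The most abundant genes were not part of that check. Column totals were 45916924 to 45943793, so all libraries sum to nearly the same total and a few abundant genes can shift the others. All 11236 genes were above 0 in all 12 libraries. Symbols were found for 10782 genes and chromosomes and gene neighbours come from the later BDGP6 annotation (Ensembl), so no coordinates are given; 454 genes had no symbol. Unused columns of per-sample values numbered 0.

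Values were taken as log2(value + 1), with a pseudocount of 1. Per population the female value was subtracted from the male value, and limma 3.58.1 (lmFit, eBayes with trend; R 4.3.3) compared the 3 monogamous with the 3 polygamous differences over 10568 genes with a mean of 10 or more. Genes with a Benjamini-Hochberg adjusted p under 0.05 were called. Alternatives used other pseudocounts, filters and scalings, no population block, edgeR 4.0.16 and DESeq2 1.42.0 on the recovered reads, and each population left out. The fits were also run on simulated data, in which both sexes of a population shared the same random shift. Those data held no library like the female one of monogamous population 1, so they do not bear on how the calls depend on it. The 2 sexes of a number come from 1 population by the labels, which is why the population was the block. Male and female deviations within a population correlated at 0.0908 to 0.474, against -0.329 to 0.0516 between populations of a mating system. The deviations were taken from the mean of the 3 libraries of a group and so sum to 0. Positive values within populations therefore push those between populations below 0, and the contrast is a description. The p-values measure the spread between populations, 1 library per sex in each.

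The members and gene lists were chosen with earlier results of these data known, and 3 lists (basement membrane, corneal lens, Vajk family) after values were seen. The naming rule took the genes that passed, the 10 with the smallest p in each direction and a set of sex-related genes. It also took up to 3 members of each of 32 lists with the smallest p. Not all of these genes are described, and further members were named to describe a list.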

Additional observations from a re-analysis of the deposited data

Results flagged for a closer look

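For 9 genes the male minus female difference itself differed between the mating systems by the limma test of that difference (adjusted p from 0.046 to 0.048), which is what singles them out here. Ordered by size on the log2 scale, the difference under monogamy exceeded that under polygamy by 3.31 for CG7214, 3.29 for CG8736, 3.11 for Acp1, 3.01 for Vajk3, 2.26 for CG11458, 2.06 for CG7203, 1.58 for Cpr97Eb, 1.34 for Cda4 and 1.32 for CG3713. All 3 monogamous populations exceeded all 3 polygamous ones for each of these genes, which 11.8% of all genes tested also did. That order follows in part from how the 9 were picked. Monogamous population 1, which stood apart over the whole transcriptome, had a difference of 0.95 for Cda4 against 0.90 and 0.88 in populations 2 and 3, 0.62 for CG7214 against 0.65 and 0.93, 0.33 for CG7203 against 0.51 and 0.57, and -1.35 for CG11458 against -0.80 and -0.71. All 9 genes passed without it. The lowest number of recovered reads for any of the 9 in any library was 35.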

How the results depend on the processing

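The 9 calls kept their direction under all 18 alternatives, but not their side of the threshold, and the highest adjusted p over these was 0.37. The count was 8 to 11 with pseudocounts of 0.5 and 10, no filter, a mean of 50 or more, TMM rescaling, robust fitting and edgeR, and 8 of the 9 were among the 9 that edgeR called. DESeq2 called 77 (53 higher, 24 lower), all 9 among them. No gene passed (0) in limma without the replicate block (576 genes at an unadjusted p under 0.05), with the library number as a replicate block across mating systems (529), or after upper-quartile rescaling (612). That rescaling moved the median interaction of all genes from 0.01 to -0.09. With no replicate block and monogamous female library 1 left out, 9 genes passed, of which 0 were among the original 9. Leaving out 1 population at a time gave counts from 0 to 333: 333 without monogamous population 1, 2 without monogamous population 2, and 0 without monogamous population 3 or any polygamous population (391 to 715 at an unadjusted p under 0.05). The causes were not tested. The difference in the spread of the sex difference was 0.0561 to 0.291 over the same omissions. With 3 populations per mating system, a change in a single gene had to be large relative to its spread between populations to pass.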

Other observations

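Several genes outside the cuticle had differences that lay apart between the mating systems without passing the test with all 6 populations. The UDP-glycosyltransferase gene Ugt301D1 had a sex difference of 0.86, 0.81 and 0.74 under monogamy and 0.17, 0.23 and 0.02 under polygamy, an interaction of 0.67 (SE 0.10, limma adjusted p = 0.13), and 0.64 without monogamous population 1 (adjusted p = 0.0087). The neuropeptide precursor gene Nplp3 had 0.39, 0.33 and 0.35 under monogamy and -0.31, -0.39 and -0.57 under polygamy (interaction 0.78, adjusted p = 0.27), and 0.76 without that population (adjusted p = 0.0071). The cytochrome P450 gene Cyp6g2 went the other way, with -0.92, -0.36 and -0.74 under monogamy and 0.61, 0.64 and 0.02 under polygamy (-1.10, adjusted p = 0.30), and -0.98 without that population (adjusted p = 0.049). For jhamt, which encodes the enzyme that completes juvenile hormone, the differences were -0.25, 0.28 and 0.17 under monogamy and 0.71, 1.80 and 1.198 under polygamy (-1.17, adjusted p = 0.45), and -1.01 without it (adjusted p = 0.11). The median interaction was -0.01 for 1678 genes on chromosome X and 0.01 for 8452 autosomal genes.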
